A study of Mus musculus with 68 samples.

Results

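The mouse embryonic stem cell (ESC) clones of the August batch were compared by genotype: 5 MCM2-2A clones, MCM2-2A#4 to MCM2-2A#8, against 7 WT clones, WT#1 to WT#4 and WT#6 to WT#8. They were chosen by the batch and clone names in the clone list of the study, without reference to any measured value, and make up 24 of the 68 libraries of the series, with 2 libraries per clone, 10 of MCM2-2A and 14 of WT. In MCM2-2A cells the histone-binding domain of MCM2 carries point mutations, and WT cells carry the wild-type gene. All clones come from the male E14JU line of the 129/Ola strain, grew in serum and LIF on gelatin without feeder cells, and received no drug. Total RNA was depleted of ribosomal RNA and sequenced with strand information, and the authors deposited counts per gene and per repeat subfamily. Each line is 1 clone, and the labels do not say whether the 2 libraries of a clone are separate cultures, so the clone, with its libraries summed, was the unit, and p-values measure the spread between clones.

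MCM2 is a subunit of the helicase that opens DNA at the replication fork. Its N-terminal tail also binds old histones H3 and H4 and helps to pass them to the lagging strand, and in MCM2-2A cells this transfer is impaired, so that old histones and their marks go mainly to the leading strand. Among these marks, H3K9me3 keeps endogenous retroviruses and other repeats silent, and H3K27me3, set by Polycomb complexes, keeps developmental regulators low. In serum and LIF, ESC cultures are mixed and hold rare cells that resemble the 2-cell embryo, together with cells primed for primitive endoderm or other fates.

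Libraries held 27854706 to 67467849 counts in MCM2-2A and 30046007 to 51904648 counts in WT. Repeat subfamilies took 3.66 to 5.36% of the counts of MCM2-2A libraries and 3.36 to 5.30% of those of WT libraries, and a single gene, Gm26917, took 13.7 to 17.9% and 13.2 to 17.5%. Values are CPM per clone, counts scaled to a common total of gene counts with TMM factors. Levels are not corrected for gene length and were compared between clones only. The 12 pluripotent ESC markers were all tested and summed to 4169 to 4948 CPM in MCM2-2A clones and 3868 to 4757 CPM in WT clones, with Pou5f1, Sox2 and Nanog among them. Of 18 fibroblast markers 15 were tested. Defining members were near 0 in every clone (Dcn at 0.0167 to 0.201 CPM in MCM2-2A and at most 0.338 CPM in WT), and the list sum of 577 to 944 CPM in MCM2-2A and 581 to 1014 CPM in WT came mostly from Fn1 and Vim, which ESCs express.

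Mcm2, the mutated gene, had 236, 186, 214, 223 and 262 CPM in MCM2-2A#4, #5, #6, #7 and #8, against 213, 348 and 402 CPM as the lowest, median and highest of the 7 WT clones. The groups overlapped, because WT#6 (213 CPM) and WT#8 (222 CPM) lay among the MCM2-2A clones, while the other 5 WT clones had 288 to 402 CPM. The log2 fold change of MCM2-2A over WT was -0.50 ± 0.16 (SE) and was not called (adjusted p = 0.121, edgeR quasi-likelihood test with Benjamini-Hochberg adjustment over all genes). A point mutation need not change the level, so this value does not test the labels. The 18 genes around Mcm2 on chromosome 6 had medians within -0.07 to 0.09 (log2) of the typical clone in MCM2-2A clones and -0.06 to 0.13 in WT clones.

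Clones of both genotypes were mixed on the first principal components and separate on the third. Components 1 and 2 held 40.8% and 25.7% of the variance, and on both the MCM2-2A and WT clones overlapped. On component 3 (15.8%) MCM2-2A clones lay at 5.49 to 20.2 and WT clones at -16.5 to 4.87. Distance was measured as the root mean square difference in log2 CPM between libraries, over 10690 genes with a mean of at least 5 CPM. Libraries of the same clone lay 0.15 to 0.26 apart. MCM2-2A#4, #6 and #7 lay 0.16 to 0.19 from each other, within the distance between libraries of 1 clone, and WT#3 and WT#7 lay 0.21 apart. The closest WT clone to MCM2-2A#4, #6 and #7 was WT#7, at 0.22 to 0.25. MCM2-2A#5 was closest to WT#4 (0.26), and MCM2-2A#8 was closest to WT#6 (0.37). Pairs of MCM2-2A and WT clones had a median distance of 0.41, against 0.37 for pairs of MCM2-2A clones and 0.40 for pairs of WT clones. The median SD per gene was 0.12 between MCM2-2A clones and 0.15 between WT clones, against 0.10 between the libraries of a clone. Whether MCM2-2A#4, #6 and #7 share a recent origin is not stated by the labels, and the counts of calls below, which treat all 12 clones as independent, are given again with these clones merged.

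**Figure D1:**
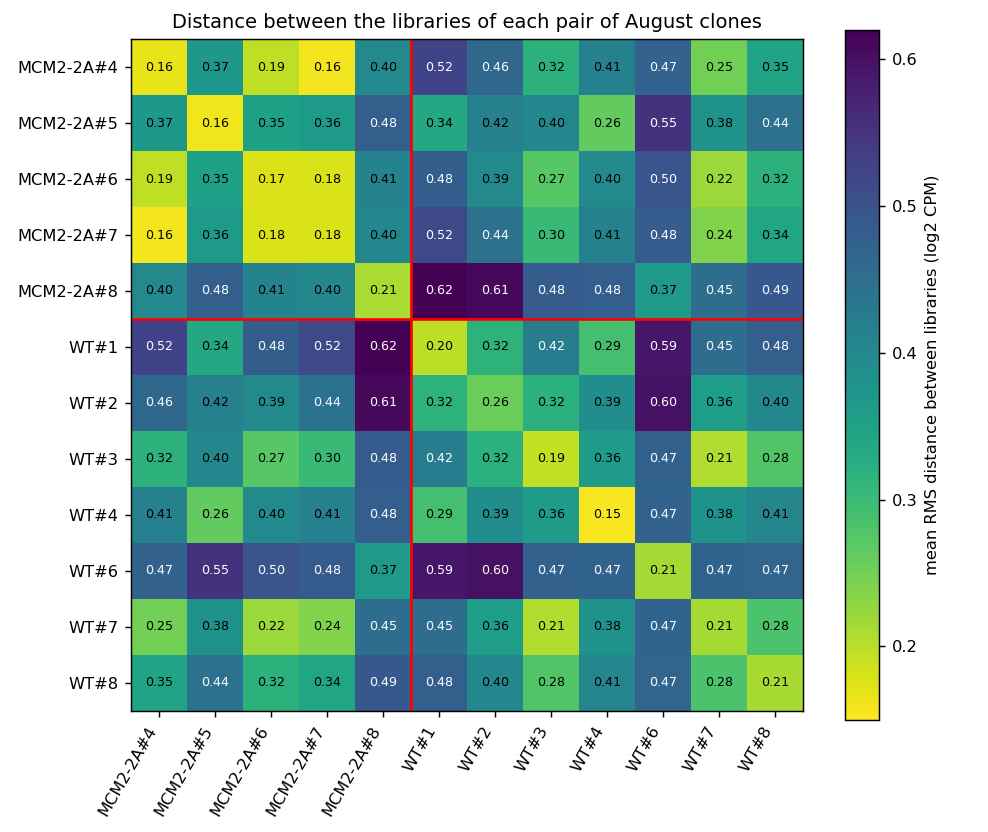
Mean root mean square distance in log2 CPM between the libraries of each pair of August clones, with MCM2-2A clones above and left of the red lines and WT clones below and right of them; the diagonal is the distance between the 2 libraries of a clone. MCM2-2A#4, #6 and #7 lie 0.16 to 0.19 apart, MCM2-2A#5 lies 0.26 from WT#4, and MCM2-2A#8 lies 0.37 from WT#6.

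Clones of both genotypes differed in RNA level over whole stretches of chromosomes. DNA copy number was not measured here. The 149 well-expressed genes at 47 to 69 Mb of chromosome 14 (mm10) stood 0.82 and 0.85 (log2) above the typical clone in MCM2-2A#5 and #8, and 0.76, 0.80 and 0.86 above it in WT#1, WT#4 and WT#6. In the other 7 clones the median was -0.08 to -0.12. The 94 genes from 70 Mb onwards on the same chromosome stood 0.51 higher in MCM2-2A#8 and 0.63 higher in WT#6. On chromosome 1, 320 genes stood 0.53 higher in WT#8 alone. Single-copy genes of chromosome Y were lowest in MCM2-2A#5 and #8. Ddx3y, an RNA helicase, had 59.1, 6.78, 63.8, 59.7 and 13.6 CPM in MCM2-2A#4 to #8, against 56.4, 81.9 and 89.6 CPM as the lowest, median and highest in WT. Uty had 31.5, 4.54, 32.4, 32.8 and 7.88 CPM, against 37.4, 41.1 and 43.4 CPM, so that all 5 MCM2-2A clones were below every WT clone. It was not called (adjusted p = 0.238, edgeR). Eif2s3y had 45.2, 8.52, 47.1, 45.0 and 19.2 CPM, against 38.8, 48.8 and 53.7 CPM. These stretches were found in the same data, and their part in any result was not tested. Counts of calls without the clones high on chromosome 14, and without those low in chromosome Y genes, follow.

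Of 20739 genes tested, 40 (0.193%) were called, which required an adjusted p under 0.01 together with a log2 fold change beyond 0.58 in either direction. Of these, 39 (0.188%) were higher in MCM2-2A clones and 1 (0.00482%), Pot1b, was lower. All 40 had no overlap between the 5 MCM2-2A and the 7 WT clones, a pattern that 342 genes (1.65%) showed in the higher and 339 (1.63%) in the lower direction. Adjusted p-values of the called genes ran from 0.00135 to 0.00994 (edgeR quasi-likelihood test, Benjamini-Hochberg), so that many stood close to the limit. Of the 40 genes 34 are protein-coding, 18 averaged under 1 CPM and 5 averaged 10 CPM or more. The median log2 fold change of all genes was -0.02.

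The count of calls was not stable. The direction of the 40 was fixed beforehand when clones were left out or merged, because their groups do not overlap. Leaving out any 1 of the 12 clones left 0 to 33 genes called higher and 0 to 2 lower, and no gene was called without MCM2-2A#4 or without MCM2-2A#7, where the lowest adjusted p was 0.0105 and 0.0126 and 3171 and 3152 genes had an unadjusted p below 0.05. With MCM2-2A#4, #6 and #7 merged to 1 unit and WT#3 and WT#7 merged to 1 unit, no gene was called by edgeR (lowest adjusted p = 0.0726, with 2231 genes at an unadjusted p below 0.05), and the 40 genes had adjusted p-values of 0.0726 to 0.168. In that fit the 40 fold changes were 0.93 to 1.14 times those given here. Without the 5 clones that were high on chromosome 14, 13 of the 40 genes were still called, and without MCM2-2A#5 and #8, the clones low in chromosome Y genes, none was (lowest adjusted p = 0.0165, 4059 genes at an unadjusted p below 0.05). DESeq2 on the same 12 clones called 269 genes higher and 56 lower.

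**Figure D2:**
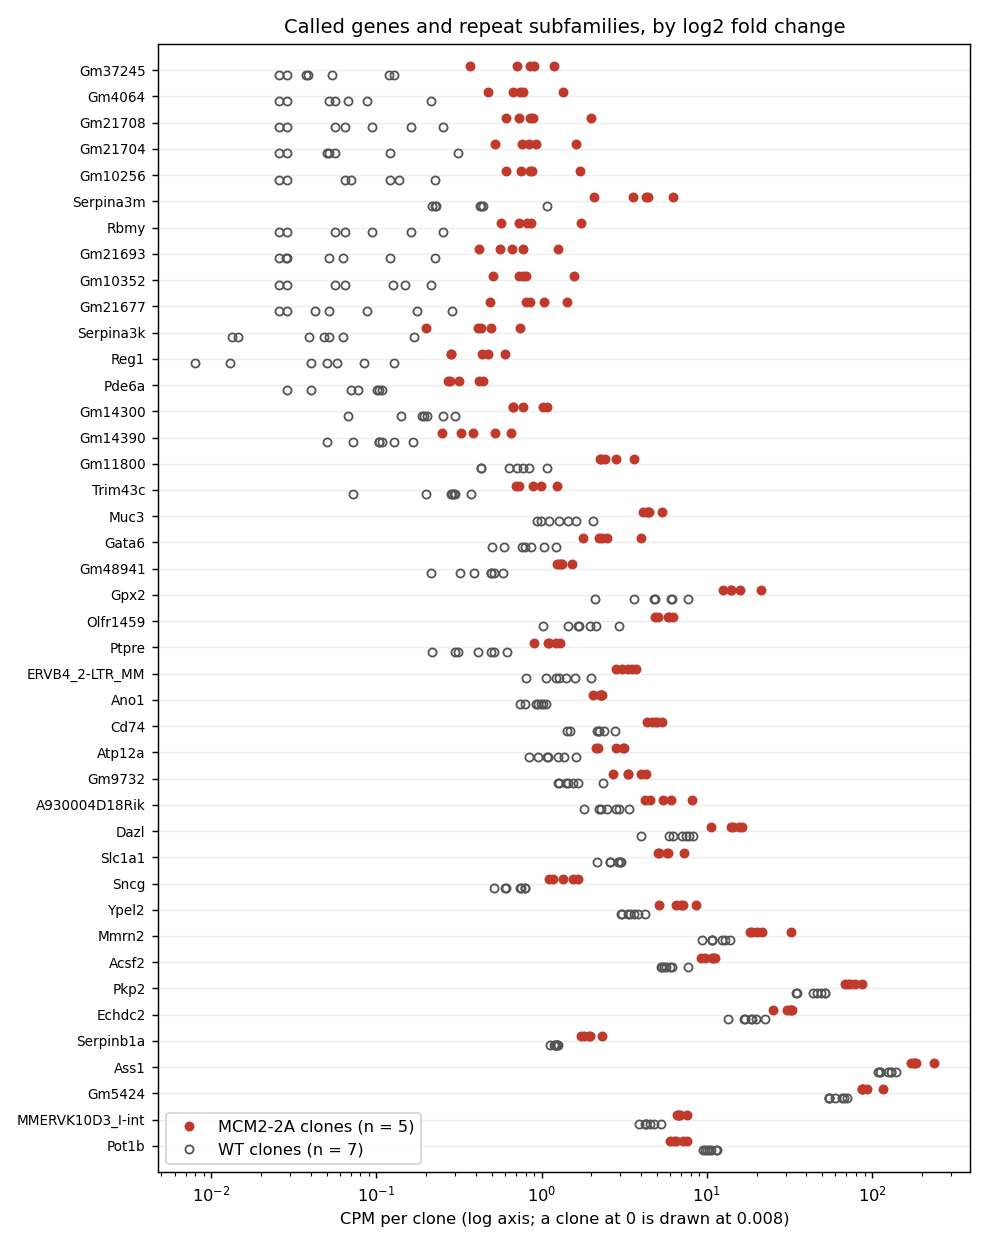
CPM of each clone (log axis) for the 40 called genes and 2 called repeat subfamilies, ordered from the highest to the lowest log2 fold change, with filled circles for the 5 MCM2-2A clones and open circles for the 7 WT clones. The groups do not overlap in any row, and Pot1b is the only row with MCM2-2A clones below WT clones.

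The clearest single gene was Ano1, a calcium-activated chloride channel of secretory epithelia. It had 2.33, 2.25, 2.06, 2.29 and 2.27 CPM in MCM2-2A#4 to #8, against 0.737, 0.956 and 1.06 CPM as the lowest, median and highest in WT. The MCM2-2A clones were close to each other and all above the highest WT clone, with a log2 fold change of 1.28 ± 0.12 (SE, adjusted p = 0.00135). Muc3, an intestinal mucin, had 4.37, 5.37, 4.13, 4.48 and 4.38 CPM, against 0.932, 1.28 and 2.05 CPM in WT. Its log2 fold change was 1.75 ± 0.18 (adjusted p = 0.00256), and again even the highest WT clone, WT#4, had less than the lowest MCM2-2A clone. Slc1a1, a glutamate transporter, had 5.71, 5.16, 5.04, 5.78 and 7.28 CPM, against 2.16, 2.90 and 3.04 CPM in WT (log2 fold change 1.07 ± 0.12, adjusted p = 0.00279). Here the 7 WT clones fell in a narrow band below all MCM2-2A clones.

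Other called genes had varied roles. Gpx2, a glutathione peroxidase of the gut, had 14.1, 12.6, 13.9, 15.9 and 21.2 CPM in MCM2-2A#4 to #8, against 2.10, 4.83 and 7.64 CPM in WT (log2 fold change 1.63 ± 0.25). Pkp2, a plaque protein of desmosomes and the called member among 22 tested epithelial junction genes, had 73.3, 79.2, 71.1, 68.8 and 86.3 CPM, against 34.9, 46.2 and 51.9 CPM (0.76 ± 0.11). Both were higher in every MCM2-2A clone than in any WT clone, whereas the epithelial junction list as a whole had a median of -0.11. Cd74, the invariant chain of MHC class II, rose by 1.21 ± 0.16, Atp12a, a proton and potassium pump, by 1.20 ± 0.17, Reg1, a secreted lectin of the pancreas, by 2.94 ± 0.47, and Olfr1459, an olfactory receptor, by 1.60 ± 0.20 on the log2 scale. Ass1, an enzyme of arginine synthesis and the most abundant called gene, had 172 to 235 CPM in MCM2-2A clones, with MCM2-2A#8 highest, and 109 to 140 CPM in WT clones (0.64 ± 0.09). The processed pseudogene Gm5424 rose by a similar 0.63 ± 0.09, with 86.8 to 116 CPM in MCM2-2A clones and 54.5 to 70.6 CPM in WT clones. MCM2-2A#8 and WT#4 were the highest clones of their genotype for both Ass1 and Gm5424, so these 2 rows may not be independent. Of the 40 called genes 5 are on chromosome 14, of which Atp12a at 56.4 Mb is within the stretch of 47 to 69 Mb and Gm48941 at 90.1 Mb is within the second stretch, while Sncg, Mmrn2 and Gm9732 are outside both.

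The largest fold change was that of Gm37245, a long intergenic RNA of chromosome 3, with 0.847, 1.19, 0.708, 0.899 and 0.367 CPM in MCM2-2A#4 to #8, against 0.0259, 0.0388 and 0.127 CPM in WT (3.66 ± 0.39, adjusted p = 0.00256). It was low in every clone, and WT clones held 2 to 10 counts. Pde6a, a phosphodiesterase of photoreceptors, rose by 2.15 ± 0.29, and Ptpre, a receptor phosphatase, by 1.45 ± 0.23 on the log2 scale. The pseudogenes Gm14300, Gm14390 and Gm11800, the intergenic RNA Gm48941 and the genes Gm9732 and A930004D18Rik had log2 fold changes of 2.12, 2.00, 1.93, 1.63, 1.17 and 1.15. Mmrn2, an extracellular matrix protein of endothelium, and Sncg, a synuclein, lie next to each other on chromosome 14 and rose by 0.94 ± 0.14 and 1.00 ± 0.16. Ypel2 (0.97 ± 0.13), the acyl-CoA synthetase Acsf2 (0.80 ± 0.10), Echdc2 (0.75 ± 0.11) and the protease inhibitor Serpinb1a (0.69 ± 0.10) complete the called genes outside the groups that follow.

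Serpina3m and Serpina3k, protease inhibitors of a tandem cluster on chromosome 12, were among the largest changes. Serpina3m had 4.28, 6.25, 3.55, 4.42 and 2.09 CPM in MCM2-2A#4 to #8, against 0.217, 0.426 and 1.07 CPM as the lowest, median and highest in WT. The log2 fold change was 3.24 ± 0.39 (adjusted p = 0.0039), and the WT clone at 1.07 CPM was WT#7, the closest WT clone to MCM2-2A#4, #6 and #7, while the other 6 WT clones had at most 0.443 CPM. Serpina3k had 0.431, 0.737, 0.414, 0.496 and 0.20 CPM, against 0.0135, 0.0479 and 0.169 CPM in WT, where WT#7 was again the highest (2.98 ± 0.46, adjusted p = 0.00927). The annotated gene model of Serpina3m (chromosome 12, 104338486 to 104394257 of mm10) contains that of Serpina3k (104338486 to 104346144), and the genes are similar in sequence, so the 2 rows are not independent and reads may be split between them. Of 11 genes of the cluster 3 were tested, and the remaining tested one, Serpina3i, had a log2 fold change of -0.44 ± 0.21 (adjusted p = 0.264).

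Germline genes formed another group. Of 50 genes of the germline and meiosis list 46 were tested. Of these 2 were called higher and none lower, against 0.188% and 0.00482% of all genes. The median log2 fold change was 0.37, against -0.02 over all genes. At an unadjusted p below 0.05, 19 were higher and 0 lower, where 9.17% and 10.0% of all genes were. Dazl, an RNA-binding protein of germ cells, had 14.40, 14.01, 15.70, 16.28 and 10.62 CPM in MCM2-2A#4 to #8, against 4.00, 7.11 and 8.26 CPM in WT. It was higher in every MCM2-2A clone, with MCM2-2A#8 nearest to WT (1.09 ± 0.16, adjusted p = 0.00733). Rbmy, a Y-linked RNA-binding protein of spermatogenesis, had 0.565, 1.74, 0.860, 0.729 and 0.818 CPM, against 0.0258, 0.0647 and 0.251 CPM in WT. The highest clone was MCM2-2A#5 among MCM2-2A clones and WT#4 among WT clones (3.22 ± 0.46, adjusted p = 0.00675).

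The other called genes of chromosome Y, Gm4064, Gm10256, Gm10352, Gm21677, Gm21693, Gm21704 and Gm21708, had log2 fold changes of 3.16 to 3.34, and in each of them MCM2-2A#5 was the highest clone and WT#3 the lowest. These 8 rows cannot be read as 8 genes. In the RefSeq promoter table (GRCm38.p6, the assembly of mm10) the 250 bases before the start of all 8 are identical, and some of the gene models overlap. Libraries of WT#3 held 2 counts of Rbmy and those of WT#4 held 21, against 38 to 130 in MCM2-2A clones. The single-copy chromosome Y genes moved otherwise: Ddx3y was lowest in MCM2-2A#5 and #8, whereas the Rbmy copies were highest in MCM2-2A#5 and, in MCM2-2A#8, within the range of the remaining MCM2-2A clones.

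The promoters of the called germline genes are shown because they hold different densities of CG dinucleotides, the bases that DNA methylation marks at silent germline promoters. Each line gives the 250 bases before the start, 5′ to 3′, with CG in capitals. Dazl is at chr17:50293621-50293870 on the minus strand and Rbmy at chrY:2830430-2830679 on the plus strand.
Dazl: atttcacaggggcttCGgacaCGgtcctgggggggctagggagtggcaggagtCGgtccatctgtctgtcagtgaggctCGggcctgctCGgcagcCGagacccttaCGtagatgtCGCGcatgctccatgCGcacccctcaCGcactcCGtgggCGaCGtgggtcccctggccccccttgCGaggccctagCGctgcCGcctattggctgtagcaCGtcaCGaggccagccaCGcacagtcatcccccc
Rbmy: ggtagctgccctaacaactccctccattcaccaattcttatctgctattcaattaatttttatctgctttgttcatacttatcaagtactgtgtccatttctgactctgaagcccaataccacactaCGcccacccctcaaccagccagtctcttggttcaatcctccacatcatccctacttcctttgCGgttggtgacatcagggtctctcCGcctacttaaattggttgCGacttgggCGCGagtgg
Dazl has 20 CG dinucleotides, a number that 17.7% of the 27025 genes in the table reach, and Rbmy has 6, which is the median of the table. Promoters were found for 23 of the 40 called genes, with 0 to 27 CG dinucleotides and a median of 6. These are descriptions of sequence, and methylation was not measured here.

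Genes of 2-cell-like cells shifted together, although 1 of them passed the limits. This list holds targets of the embryonic factor Dux such as the Zscan4, Usp17l, Tcstv and Trim43 families. Of 38 genes 33 were tested. Of these 1 was called higher and none lower, against 0.188% and 0.00482% of all genes. The median log2 fold change was 1.05. At an unadjusted p below 0.05, 31 of the 33 were higher and 0 lower, against 9.17% of all genes in the higher direction, and 4 had an adjusted p below 0.05, against 1.25% of all genes. The called gene, Trim43c, had 0.728, 1.23, 0.991, 0.884 and 0.702 CPM in MCM2-2A#4 to #8, against 0.0724, 0.285 and 0.375 CPM in WT (1.80 ± 0.28, adjusted p = 0.00963). Zscan4f, a factor that marks this state and named after its values were seen, had 27.1, 31.0, 28.4, 33.3 and 14.7 CPM, against 2.98, 16.2 and 18.4 CPM in WT (1.01 ± 0.35, adjusted p = 0.146). MCM2-2A#4 to #7 were above every WT clone, MCM2-2A#8 was within the range of WT, and WT#6 and WT#8 (7.52 CPM) were far below the other WT clones. Summed over the list, MCM2-2A clones had 179 to 324 CPM, with MCM2-2A#8 lowest, and WT clones had 80.9 to 209 CPM, with WT#6 and WT#8 lowest. Without WT#6 and WT#8 the median was 0.73 and 29 genes were at an unadjusted p below 0.05. With the alike clones merged the median was 1.02 and 11 genes were. Many members are near-identical copies, so their counts are not independent, and more such cells and more RNA per cell cannot be told apart in bulk RNA.

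Primitive endoderm genes were also higher in part. Of 32 genes 29 were tested, 1 was called higher and none lower, against 0.188% and 0.00482% of all genes. At an unadjusted p below 0.05, 10 were higher and 2 lower, against 9.17% and 10.0% of all genes. The median of 0.23 was 0.12 without MCM2-2A#8, 0.36 without WT#1, 0.01 without MCM2-2A#5 and #8, and 0.38 with the alike clones merged. Gata6, a transcription factor that specifies primitive endoderm, had 2.33, 2.48, 1.79, 2.23 and 3.98 CPM in MCM2-2A#4 to #8, against 0.504, 0.790 and 1.22 CPM in WT. All 5 MCM2-2A clones were above all WT clones, with MCM2-2A#8 highest (1.64 ± 0.24, adjusted p = 0.00677). Other members stood higher without being called. Pdgfra, a receptor of the lineage, had a log2 fold change of 1.15 ± 0.18 (adjusted p = 0.0101), Hnf4a, a nuclear receptor, 1.41 ± 0.26 (0.0208), Cubn, an endocytic receptor, 0.97 ± 0.21 (0.0337) and Sox17, a transcription factor, 1.13 ± 0.27 (0.047), all without overlap between the groups. Rhox5, an X-linked homeobox gene of the same list, went the other way with -0.86 ± 0.21 (adjusted p = 0.0533). In the whole list the groups did not overlap for 5 higher genes and 1 lower gene, against 1.65% and 1.63% of all genes. The sum of the list was 1664 to 1939 CPM in MCM2-2A and 1677 to 1944 CPM in WT.

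**Figure D3:**
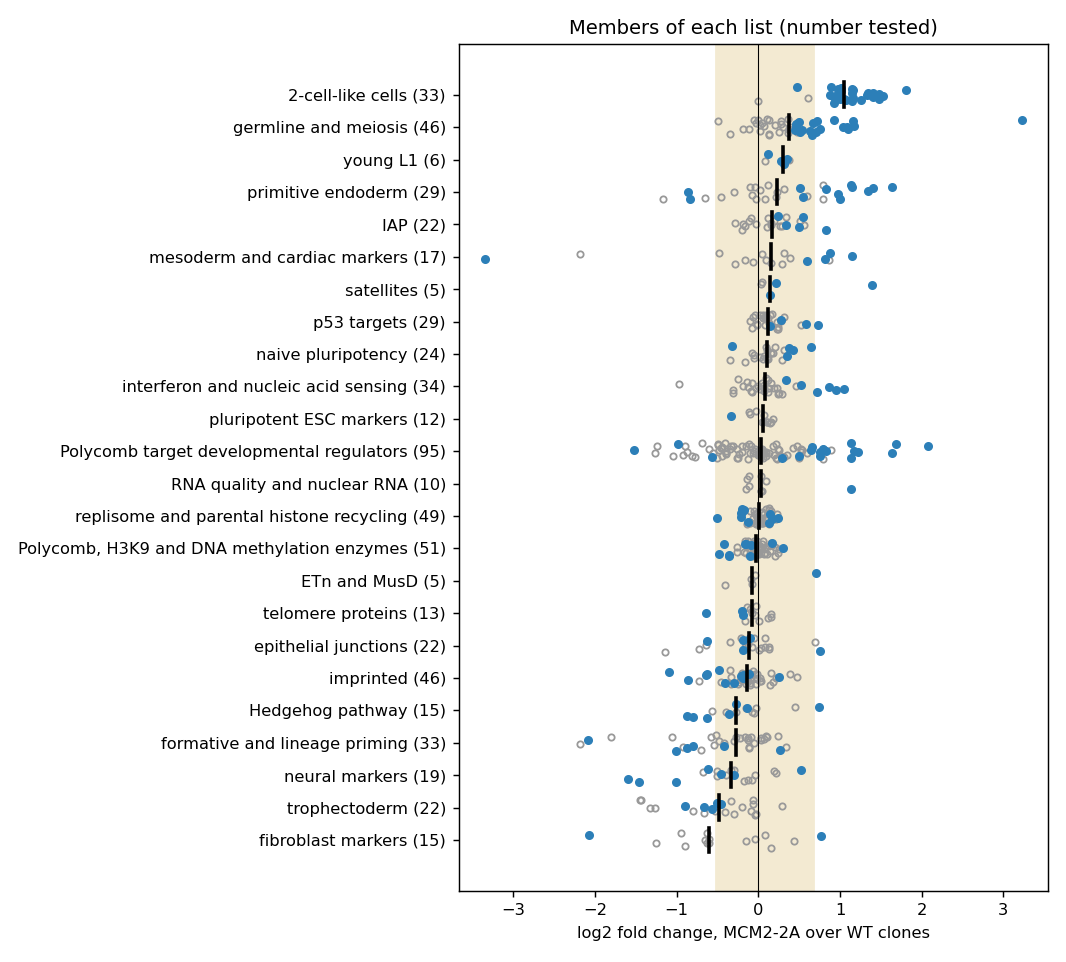
Log2 fold change of MCM2-2A over WT clones for each tested member of the gene and repeat lists with at least 5 tested members, with the number tested in brackets. Filled points have an unadjusted p below 0.05, open points do not, black bars are list medians, and the shaded band is the range from the 5th to the 95th percentile of all genes; the 2-cell-like list has its median at 1.05 and the trophectoderm list at -0.48.

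Polycomb target developmental regulators had more genes higher than lower at low p-values, with a list median near that of all genes. Of 139 genes 95 were tested, and Gata6 was called, where 0.188% of all genes were called higher. The median log2 fold change was 0.04, against -0.02 over all genes. At an unadjusted p below 0.05, 15 were higher and 3 lower, against 9.17% and 10.0% of all genes. These counts moved with the clones used. They were 12 and 8 without MCM2-2A#5, 16 and 7 without WT#6, and 12 and 8 without WT#6 and WT#8. Without the 5 clones high on chromosome 14 they were 14 and 10, and with the alike clones merged 15 and 1. At an adjusted p below 0.05, 8 were higher and 0 lower, against 1.25% and 0.743%. The groups did not overlap for 7 higher and 0 lower genes, against 1.65% and 1.63%. Foxd1, a forkhead factor of kidney stroma, had 0.461, 0.576, 0.523, 0.481 and 1.60 CPM in MCM2-2A#4 to #8, against 0.0565, 0.168 and 0.301 CPM in WT (2.08 ± 0.39, adjusted p = 0.0208). Foxn4, a forkhead factor of retinal progenitors, had 9.08, 15.3, 7.86, 7.80 and 8.38 CPM, against 3.03, 4.23 and 6.64 CPM (1.17 ± 0.22, adjusted p = 0.0208), and Hoxa13, a posterior homeobox gene, a log2 fold change of 1.69 ± 0.31 (adjusted p = 0.0208). These 3 were named after their values were seen, had no overlap between the groups and were not called. Tbx3, which belongs to this list and to the naive pluripotency list, had 157, 150, 149, 158 and 212 CPM, against 83.8, 99.97 and 135 CPM (0.65 ± 0.12, adjusted p = 0.0219).

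Several other lists had medians below 0 and no called gene. In the trophectoderm list 21 of 22 tested genes had a negative fold change, the median was -0.48, and 5 genes were lower and 0 higher at an unadjusted p below 0.05, against 10.0% and 9.17% of all genes. Without MCM2-2A#5, and likewise without WT#6, 11 genes were lower. Rhox6, an X-linked homeobox gene, had the lowest p of the list, with 2.704, 2.076, 2.373, 2.496 and 1.520 CPM in MCM2-2A#4 to #8, against 2.355, 4.452 and 5.186 CPM in WT (-0.90 ± 0.19, adjusted p = 0.0333). The groups overlapped, since WT#8 was the lowest WT clone and lay below 3 of the MCM2-2A clones. Krt8, a simple epithelial keratin, had 14.8, 53.1, 28.9, 17.1 and 13.2 CPM in MCM2-2A#4 to #8, against 4.75, 31.5 and 154 CPM in WT (-1.33 ± 0.70, adjusted p = 0.326). The groups overlapped fully, with WT#2 and WT#1 highest and WT#6 lowest of all 12 clones. In the formative and lineage priming list 25 of 33 tested genes were negative, and 5 were lower and 1 higher at an unadjusted p below 0.05. The median of -0.27 was -0.57 without MCM2-2A#5 (9 lower), -0.15 without WT#1, -0.42 without WT#6 (11 lower) and -0.48 without WT#6 and WT#8 (13 lower). Id2, an inhibitor of differentiation factors, had 17.03, 21.38, 21.92, 20.76 and 15.13 CPM, against 26.52, 29.99 and 55.89 CPM (-0.88 ± 0.19, adjusted p = 0.0339). Neural markers had a median of -0.33 (6 lower and 1 higher at an unadjusted p below 0.05 of 19 tested), imprinted genes -0.14 (11 lower and 1 higher of 46) and fibroblast markers -0.61 (1 lower and 1 higher of 15), where 10.0% of all genes were lower and 9.17% higher. The fibroblast median was -0.21 without WT#1, -0.23 without WT#4, -0.36 without MCM2-2A#8 and -0.94 without MCM2-2A#5. Mesoderm and cardiac markers differed from these lists, with a median of 0.16 over 17 tested genes. At an unadjusted p below 0.05, 4 were higher and 1 lower, and at an adjusted p below 0.05, 2 were higher and 0 lower, against 1.25% and 0.743% of all genes. The median ran from -0.04 to 0.60 over the alternative settings.

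The Hedgehog pathway, in which the receptor Ptch1 is both an inhibitor and a transcriptional target, had 13 of 15 tested members below 0. At an unadjusted p below 0.05, 6 were lower and 1 higher, against 10.0% and 9.17% of all genes. Ptch1 had 106, 125, 85.9, 104 and 92.0 CPM in MCM2-2A#4 to #8, against 133, 182 and 253 CPM in WT. No MCM2-2A clone reached the lowest WT clone, WT#2, and the log2 fold change was -0.88 ± 0.15 (adjusted p = 0.0171), which was not called. Boc, a co-receptor, was on the opposite side with 2.97, 2.28, 2.91, 2.87 and 2.66 CPM, against 1.38, 1.47 and 2.15 CPM (0.75 ± 0.13, adjusted p = 0.0185). Smo, the signal transducer, had -0.63 ± 0.20 and Disp1, which releases the ligand, -0.28 ± 0.08 (adjusted p = 0.118 and 0.105).

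Pot1b, which binds single-stranded telomere ends, was the gene called lower, with 6.29, 6.51, 7.53, 7.18 and 5.96 CPM in MCM2-2A#4 to #8, against 9.49, 10.3 and 11.6 CPM in WT. The groups were separate and narrow (-0.64 ± 0.08, adjusted p = 0.0039). The other 12 tested telomere proteins were not called, and the list had a median of -0.08. In all, 13 genes (0.0627%) were lower at an adjusted p below 0.01, and 12 of them had a decrease smaller than the fold limit, among them Tlk1, a kinase of the histone chaperone Asf1, at -0.34, Cdk17 at -0.51, Tfe3, a transcription factor, at -0.46, and Gmps, a GMP synthetase, at -0.29. Frem2, an extracellular matrix protein, had a larger decrease of -1.43 at an adjusted p of 0.0101. With both limits relaxed to an adjusted p below 0.05 at any fold, 259 genes were higher and 154 lower.

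Replisome and histone recycling genes, the surroundings of MCM2 itself, were close to level. None of 49 was called, and the median was 0.01. Atrx, a chromatin remodeller, had 218 to 235 CPM in MCM2-2A clones and 244 to 290 CPM in WT clones (-0.22 ± 0.04, adjusted p = 0.0333), and Asf1a, an H3 and H4 chaperone, 33.4 to 36.9 and 37.5 to 43.4 CPM (-0.21 ± 0.05, adjusted p = 0.0507). Both were lower in every MCM2-2A clone, by less than the fold limit. Among 51 enzymes of Polycomb, H3K9 and DNA methylation the median was -0.02. At an unadjusted p below 0.05, 8 of them were lower and 2 higher, where 10.0% and 9.17% of all genes were. Kdm2b, which recruits a Polycomb complex to CpG islands, was on the higher side. It had 141 to 177 CPM in MCM2-2A and 112 to 135 CPM in WT (0.30 ± 0.06, adjusted p = 0.0333). The median was 0.12 for 29 tested p53 targets, 0.11 for 24 tested naive pluripotency genes and 0.08 for 34 tested interferon and nucleic acid sensing genes, and none of these lists had a called gene. The naive pluripotency median was 0.04 without MCM2-2A#8, 0.05 without WT#1, 0.06 without WT#2, 0.19 without MCM2-2A#5 and 0.25 without WT#6, and without WT#6 and WT#8 it was 0.30, with 10 genes higher at an unadjusted p below 0.05, against 4 over all clones. Among 10 tested genes of the RNA quality and nuclear RNA list none was called. Xist, the RNA of X inactivation, had 1.66, 2.01, 0.806, 1.44 and 0.434 CPM in MCM2-2A#4 to #8, against 0.217, 0.672 and 0.751 CPM in WT (1.14 ± 0.37, p = 0.00811, adjusted p = 0.121 by edgeR). The groups overlapped through MCM2-2A#8, and its part in the other results was not tested. Malat1, a nuclear RNA, had -0.15 ± 0.07.

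More repeat subfamilies lay higher than lower in MCM2-2A clones at an unadjusted p below 0.05, but few were called. Of 978 tested, 2 (0.204%) were called, both higher. At an unadjusted p below 0.05, 78 (7.98%) were higher and 12 (1.23%) lower, and the median log2 fold change was 0.04. At an adjusted p below 0.05, 7 (0.716%) were higher and none lower. Both called subfamilies are ERVK, endogenous retroviruses with a lysine tRNA primer. MMERVK10D3_I-int, an internal part, had 6.91, 6.58, 6.76, 7.61 and 6.71 CPM in MCM2-2A#4 to #8, against 3.91, 4.31 and 5.30 CPM in WT (0.62 ± 0.09, adjusted p = 0.00323). ERVB4_2-LTR_MM, a long terminal repeat, had 3.05, 3.35, 2.81, 3.52 and 3.72 CPM, against 0.808, 1.27 and 2.00 CPM (1.30 ± 0.19, adjusted p = 0.00323). Neither overlapped between the groups, and neither was called with the alike clones merged. ORR1A1-int, of the ERVL-MaLR family, had the same adjusted p and a log2 fold change of 0.40 ± 0.05, below the fold limit.

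RLTR45-int, an ERVK element, had 174, 162, 178, 199 and 137 CPM in MCM2-2A#4 to #8, against 38.7, 78.1 and 103 CPM in WT. The groups did not overlap (1.22 ± 0.21, adjusted p = 0.0165). MMERGLN-int, of the ERV1 family, had 376, 406, 299, 341 and 200 CPM, against 70.2, 90.1 and 281 CPM in WT (1.55 ± 0.34, adjusted p = 0.0503). Here the groups overlapped because of WT#7 at 281 CPM, while the other 6 WT clones had 70.2 to 95.1 CPM. WT#7 was thus the highest WT clone for Serpina3m, Serpina3k and MMERGLN-int. GSAT_MM, the major satellite, had 17.4, 10.3, 20.9, 18.4 and 44.7 CPM, against 3.26, 8.42 and 13.9 CPM (1.39 ± 0.38, adjusted p = 0.142). MERVL-int, the retrovirus of 2-cell-like cells, had 428, 565, 559, 472 and 240 CPM, against 140, 389 and 441 CPM (0.35 ± 0.25, adjusted p = 0.812). MCM2-2A#5, #6 and #7 were above every WT clone for MERVL-int and MCM2-2A#8 was below the median of WT. None of the 22 IAP or 6 young L1 subfamilies tested was called, where 0.204% of all subfamilies were. Their medians were 0.17 and 0.30, against 0.04 over all subfamilies. At an unadjusted p below 0.05, 5 IAP and 4 young L1 subfamilies were higher and 0 lower. Of all subfamilies 7.98% were higher and 1.23% lower.

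As shares of all counts, 1 of 8 repeat families differed. ERV1 took 0.127, 0.127, 0.118, 0.127 and 0.0960% of the counts in MCM2-2A#4 to #8, against 0.0691, 0.0749 and 0.0990% as the lowest, median and highest in WT. The mean was 0.119 ± 0.0134% in MCM2-2A (SD, n = 5) and 0.0792 ± 0.0111% in WT (SD, n = 7), and MCM2-2A#8 fell just below WT#7 (p = 0.00253, two-sided exact permutation test over 792 splits, where the smallest possible p is 0.00126; adjusted p = 0.0202 over 8 families). With the alike clones merged the difference was 0.0377 percentage points, in a design with too few splits for 1 family alone to pass after adjustment. The tested ERV1 subfamilies summed to 1014.5 to 1323.1 CPM in MCM2-2A clones and 729.8 to 1037.6 CPM in WT clones. Of this, the MMERGLN elements alone held 213 to 433 CPM and 74.7 to 301 CPM. The median log2 fold change of the 102 tested ERV1 subfamilies was 0.10, against 0.04 over all subfamilies. L1 took 0.781 ± 0.0601% and 0.673 ± 0.0739% (n = 5 and 7, exact permutation p = 0.0227, adjusted p = 0.0606), and satellites 0.143 ± 0.0117% and 0.122 ± 0.0129% (n = 5 and 7, exact permutation p = 0.0215, adjusted p = 0.0606). ERVL, ERVL-MaLR, SINE and DNA elements had adjusted p-values of 0.154 to 0.923.

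**Figure D4:**
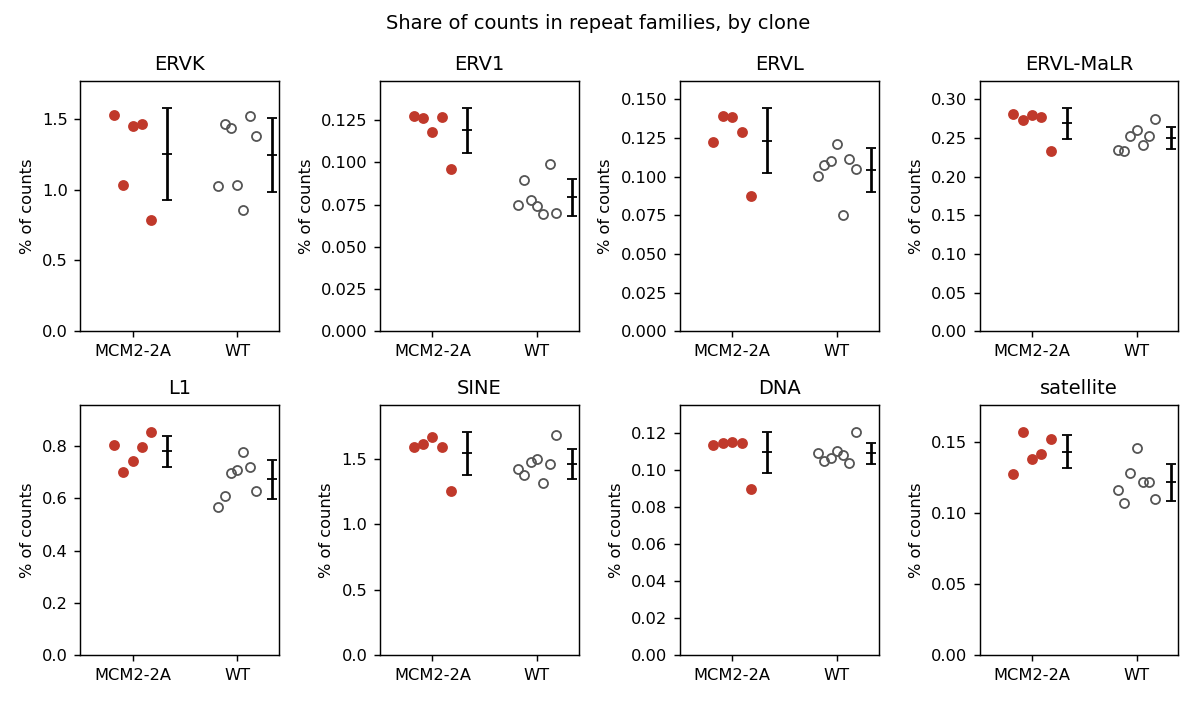
Percent of all counts in each of 8 repeat families per clone, with the 5 MCM2-2A clones left and the 7 WT clones right in each panel and black bars for mean ± SD. ERV1 is the family with an adjusted p below 0.05, and ERVK splits, in both genotypes, into clones at 0.788 to 1.04% and clones at 1.38 to 1.53%.

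The ERVK family split the clones by the chromosome 14 stretch, and its mean was alike in both genotypes. It took 1.25 ± 0.326% of counts in MCM2-2A and 1.25 ± 0.264% in WT (SD, n = 5 and 7, exact permutation p = 0.915). The 5 clones that were high at 47 to 69 Mb of chromosome 14 had the 5 lowest shares, with 1.04 and 0.788% in MCM2-2A#5 and #8 and 1.03, 1.03 and 0.858% in WT#1, WT#4 and WT#6, whereas the other 7 clones had 1.45 to 1.53% in MCM2-2A and 1.38 to 1.52% in WT. Most ERVK counts came from the ETn and MusD elements. Summed over this list, MCM2-2A#5 and #8 had 7230 and 5609 CPM and WT#1, WT#4 and WT#6 had 7814, 7523 and 6470 CPM, against 11316 to 12143 CPM in MCM2-2A#4, #6 and #7 and 11199 to 12345 CPM in WT#2, WT#3, WT#7 and WT#8. The pattern was seen in the data and was not tested, and what links the stretch and the family was not tested.

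**Figure D5:**
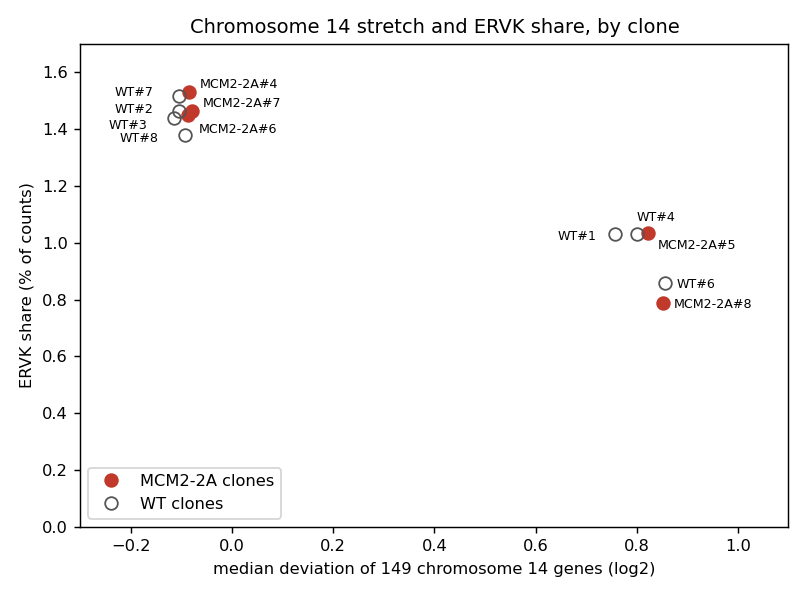
Each point is 1 clone, with the median log2 deviation of 149 chromosome 14 genes from the typical clone on the x axis and the share of counts in the ERVK family on the y axis; filled points are MCM2-2A clones and open points WT clones. The 5 clones at 0.76 to 0.86 on the x axis have ERVK shares of 0.788 to 1.04%, and the 7 clones at -0.08 to -0.12 have 1.38 to 1.53%.

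Single MCM2-2A clones carried differences of their own. Of 14575 genes with a mean of at least 1 CPM, MCM2-2A#8 lay more than 1 log2 unit above all other 11 clones for 6 and below them for 32, against 1 and 2 for MCM2-2A#5, 1 and 0 for MCM2-2A#6, and 0 and 0 for MCM2-2A#4 and #7. Among WT clones WT#6 was below all others for 159 genes and the rest for at most 6. In MCM2-2A#8, Klhl13, an X-linked adaptor of a ubiquitin ligase, had 53.5 CPM against 171 to 555 CPM in the others, and Gbp2b, an interferon-induced GTPase, 0.1503 CPM against 0.464 to 41.0 CPM. Atp2a3, a calcium pump, had 58.1 CPM in this clone against 6.02 to 24.4 CPM, and Xaf1, an interferon-induced gene, 17.5 CPM against 3.54 to 7.69 CPM. In MCM2-2A#5 the 3 genes farthest below were the Y-linked Eif2s3y, Ddx3y and Uty, and A2m, a protease inhibitor, was high with 8.54 CPM against 1.16 to 4.40 CPM. MCM2-2A#6 had Ptprf, a receptor phosphatase, at 139 CPM against 270 to 387 CPM, MCM2-2A#7 had the pseudogenes Obox4-ps21, Obox4-ps22 and Obox4-ps23 highest, and MCM2-2A#4 had Zfp773 lowest, at 0.446 CPM against 0.785 to 3.39 CPM. The 2 libraries of the clone were close to each other for Klhl13 (53.8 and 55.7 CPM), Atp2a3 (62.7 and 54.8 CPM) and Ptprf (153 and 135 CPM).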

How the data were processed

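Per the labels, the authors used Trimmomatic 0.39 for trimming, STAR 2.7.1a for alignment (mm10) and featureCounts for counting, and deposited raw counts per gene (55335 rows, GENCODE) and per repeat subfamily (1146 rows). Of the table of clones 39 columns were used, and 3 columns that matched no labelled sample were not. Batch and clone names come from the clone list of the study. Members and lists were chosen with earlier results of these data known. Libraries held 27854706 to 67467849 counts, and precision is limited by the number of clones, 5 and 7.

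Counts were summed per clone, filtered with filterByExpr (minimum counts 10 and 15), scaled by TMM from gene rows and tested with the quasi-likelihood test of edgeR 4.0.16 in R 4.3.3, genes and repeats in one fit and adjusted separately (Benjamini-Hochberg). Features with an adjusted p under 0.01 whose log2 fold change lay beyond 0.58 in either direction were called. SE is the log2 fold change over the square root of F. Shares of counts in 8 repeat families were compared by exact permutation. Gene symbols and positions follow GENCODE vM21, which holds 55154 of the gene rows.

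Named genes were Mcm2, the 20 higher and 10 lower called genes with the largest change, called or lowest-p list members, called repeats, and the 3 genes farthest above and below for each MCM2-2A clone. Others are called genes or were named with their values known, which the text says beside some of them only. Those without such a remark include Hnf4a, Cubn, Krt8, Tlk1, Cdk17, Tfe3, Gmps and Frem2. Alternatives were DESeq2 1.42.0, other scaling, filters and limits, glmTreat, a robust fit, limma 3.58.1 voom on libraries with and without a replicate block, 1 library per clone and clones left out; 3 were chosen after seeing the data: alike clones merged, the 5 clones high on chromosome 14 left out, and MCM2-2A#5 and #8 left out. The main fit had no replicate block.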

Additional observations from a re-analysis of the deposited data

Results flagged for a closer look

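In 19 of 102 groups of clones 1 clone stood apart from the rest of its genotype by Dixon's test, which chance gives in about 1 in 20 groups. MCM2-2A#5 was the high clone for the Rbmy copies Gm21708 (1.98 CPM), Rbmy (1.74 CPM), Gm10256 (1.71 CPM) and Gm10352 (1.57 CPM), and for Muc3 (5.37 CPM). The Rbmy copies share sequence and count as 1 observation. WT#4 was the high WT clone for 2 more copies, Gm4064 (0.215 CPM) and Gm21704 (0.311 CPM), and for Gm9732 (2.35 CPM) and Acsf2 (7.71 CPM). WT#7 was the high WT clone for Serpina3m (1.07 CPM) and Serpina3k (0.169 CPM), whose gene models overlap. MCM2-2A#8 was the high MCM2-2A clone for Ass1 (235 CPM), the processed pseudogene Gm5424 (116 CPM) and Mmrn2 (32.3 CPM). The rows of Ass1 and Gm5424 may not be independent. MCM2-2A#8 was the low MCM2-2A clone for the shares of counts in ERVL-MaLR (0.234%), SINE (1.25%) and DNA elements (0.0897%). MCM2-2A#6 was high for Gm48941 (1.54 CPM), and WT#8 was the high WT clone for DNA elements (0.121%).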

How the results depend on the processing

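The number of called genes did not hold. The 40 kept their direction under every alternative in which they had a value. Where clones were left out or merged, the lack of overlap between the groups fixed this beforehand. With 39 higher and 1 lower gene and 2 higher repeat subfamilies as the reported counts, DESeq2 gave 269, 56 and 8, an adjusted p below 0.05 at any fold 259, 154 and 7, and glmTreat 0, 0 and 0 (541 genes at an unadjusted p below 0.05). A filter of 1 CPM gave 24 higher genes. RLE scaling and no filter each gave 2 lower genes, and 39 and 37 of the 40 were still called. Leaving out 1 clone gave 0 to 33 higher genes, 0 to 2 lower genes and 0 to 4 repeats, and each of the 40 genes kept an adjusted p below 0.05 (highest 0.0378). Without WT#6 and WT#8 there were 18 and 0 genes. The lower-numbered library of each clone gave 5, 0 and 1. The higher-numbered library gave 4 lower genes and 1 repeat, and 30 of the 36 main calls with a value there were still called. With alike clones merged, and without MCM2-2A#5 and #8, there were 0, 0 and 0. Without the 5 clones high on chromosome 14 there were 2 lower genes, and 13 of the 40 were still called. The cause of these moves was not tested.

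Limma voom on libraries called 185, 38 and 7 without a replicate block and 125, 21 and 6 with it. Same-numbered libraries of different clones deviated together (r over 0.1) in 41 of 55 pairs of clones (range -0.0469 to 0.564), not in all, and no shared batch is labelled, so the pairing stays a hint from the data.

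The ERV1 share difference of 0.0397 percentage points was 0.0376 to 0.0454 when 1 clone was left out, and its adjusted p rose to 0.0519 without WT#1, WT#2, WT#3, WT#6 or WT#8. It was 0.0359 without WT#6 and WT#8, 0.0377 with alike clones merged and 0.0399 without the 5 clones high on chromosome 14; these designs have too few splits for 1 family alone to pass, so their p-values say nothing about stability. When 1 clone was left out, ERVL was 0.0141 to 0.0278 and ERVL-MaLR 0.016 to 0.0278, both past the threshold without MCM2-2A#8, and satellites were 0.0183 to 0.0258, past it without WT#4. Without MCM2-2A#5 and #8, ERVL (0.0255) and ERVL-MaLR (0.0295) passed. With the lower-numbered library ERVL-MaLR (0.0306), L1 (0.142) and satellites (0.0257) passed. With the higher-numbered library none of these passed. There ERVL-MaLR was -0.00082, L1 0.0637 and satellites 0.0171 (adjusted p = 0.958, 0.457 and 0.313, exact permutation test). Of the 40 called genes 18 averaged under 1 CPM, where only large changes can be called.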

Other observations

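The January and March libraries of other MCM2-2A clones, and of WT#1 in March, entered no test. WT#1 was the only WT clone of these batches with counts used here, and it had none in January. January values are therefore set beside those of other batches. Values are means of 3 libraries. Serpina3m had 5.47 and 6.00 CPM in MCM2-2A#1 (January and March), 5.58 CPM in MCM2-2A#2 (January) and 3.64 CPM in MCM2-2A#3 (March), against 0.192 CPM in WT#1 (March). Rbmy had 4.73, 5.93, 2.41 and 1.497 CPM in the same order, against 0.101 CPM in WT#1. Dazl had 7.42, 9.14, 14.3 and 15.9 CPM, against 6.07 CPM in WT#1, so that MCM2-2A#1 in January was within the range of the August WT clones. Ano1 had 1.38, 1.38, 1.77 and 2.24 CPM, against 0.786 CPM. Gata6 had 1.76, 1.85, 3.69 and 3.55 CPM, against 0.733 CPM. Pot1b had 7.27, 7.85, 6.63 and 7.09 CPM, against 10.3 CPM.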
